A study of Bos taurus with 30 samples.

Results

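The genes described here encode the proteins of the cytosolic ribosome. They were chosen by name: a gene entered if its symbol began with RPL or RPS followed by a digit or P, if it was annotated as protein coding, and if it was not one of the S6 kinase genes, whose symbols start with RPS6K. The rule found 83 genes among the 27607 in the count tables, of which 15677 were annotated as protein coding. These 83 genes carried 82 symbols, because RPS29 had 2 gene identifiers (ENSBTAG00000025666 and ENSBTAG00000052337). Of the 83, 46 belonged to the large subunit, 3 to its stalk and 33 to the small subunit. The remaining gene, RPS19BP1, met the name rule but encodes a protein that binds RPS19 and is not part of the ribosome. It was kept in every count below.

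The ribosome reads messenger RNA in its small subunit and joins amino acids in its large subunit, and the stalk proteins of the large subunit recruit and activate translation factors. Most ribosomal protein messages begin with a 5′ terminal oligopyrimidine tract, through which insulin and nutrient signalling by mTOR governs how strongly they are translated. Because that control acts mainly on translation, levels of RNA, which are what was measured here, do not report the output of ribosomal protein. Several ribosomal proteins have a paralog, a second gene for a closely related protein, whose use differs between tissues.

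The study used a microfluidic device that holds bovine endometrial epithelial cells above a porous membrane and stromal enriched cells below it, both grown from uteri of nonpregnant cows early in the luteal phase. The medium flowed through the device for 3 days, and the RNA of each cell type was sequenced separately in bulk. In the glucose experiment the medium held 5 or 50 mM glucose, and in the insulin experiment it held 5 mM glucose with acetic acid vehicle, 1 ng/mL insulin or 10 ng/mL insulin. Each of the 10 groups (epithelial and stromal cells at each of the 5 conditions) had 3 libraries, named replicates 1, 2 and 3, which gives 12 glucose and 18 insulin libraries. The cells were primary cultures purified by plating time, so each group was a fraction enriched for its cell type. In such bulk libraries, a change in the make-up of the cells and a change in the RNA per cell cannot be told apart.

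The libraries held 13493503 to 16647701 counted reads in the glucose experiment and 8826470 to 13214728 in the insulin experiment. The ribosomal protein genes took 179819 to 250950 and 122673 to 280796 of these, respectively. A count of 3 reads, taken as the floor of detection, came to 0.180 to 0.222 CPM (counts scaled to a fixed library size) in the glucose libraries and 0.227 to 0.340 CPM in the insulin libraries; this covers counting error only. Of 20 epithelial marker genes, 19 had a row, and their summed level was 8100 to 10639 CPM in the epithelial libraries other than epithelial 5 mM glucose replicate 2 (18533 CPM), against 76.6 to 1851 CPM in the stromal libraries other than stromal 50 mM glucose replicate 3 (5551 CPM). Stromal replicates 1, 2 and 3 had 820, 546 and 264 CPM of them at 5 mM glucose and 1851, 1327 and 5551 CPM at 50 mM. Each stromal pair was thus higher at 50 mM, without overlap, and the stromal insulin libraries had 76.6 to 465 CPM. The 20 stromal markers (21 rows) summed to 56553 to 100748 CPM in the stromal libraries, again with stromal 50 mM glucose replicate 3 apart at 23689 CPM, and to 1589 to 7758 CPM in the epithelial ones. Immune markers (3 of 6 with a row) summed to no more than 17.6 CPM and endothelial markers (3 of 4) to no more than 78.8 CPM in any library; smooth muscle markers (4 of 4) reached 16.7 to 523 CPM in the epithelial libraries and 1018 to 7761 CPM in the stromal ones. Epithelial 5 mM glucose replicate 2 also had 0.128% of its reads on mitochondrial protein-coding genes, where every other library had 1.18% to 2.36%. Beside several results of the glucose experiment below, though not all, the values without the pairs that hold these 2 libraries are given.

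Levels below are CPM on library sizes scaled by TMM within each experiment, so a level is compared only within its experiment, and reads are not compared between genes because no gene lengths were used. All members but 1 passed the filter on low counts in every comparison, which left 82 to be tested. The exception was RPL3L, a paralog of RPL3 known from striated muscle, which had 44 reads over all 30 libraries and no more than 6 in any of them. RPLP0, the stalk base, held the most reads (469416 over all libraries). Others with many reads were RPS2 with 225591, RPS3 with 217862 and RPL13A with 162392. After RPL3L the fewest reads were on RPS15A with 531, RPL23A with 1074, RPL36A with 1907 and RPL17 with 2377. Only uniquely mapped reads were counted, and ribosomal protein genes have many near-identical processed copies, so the low totals of members such as these are uncertain.

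The summed share of protein-coding reads that fell on the ribosomal protein genes was higher in epithelial than in stromal cells in the insulin experiment. It was 2.46% ± 0.302 (SD, n = 3) in epithelial vehicle cells, with values of 2.81%, 2.30% and 2.28% in replicates 1, 2 and 3. Stromal vehicle cells had 1.71% ± 0.187, with 1.87%, 1.76% and 1.5%. Each epithelial library lay above every stromal library at vehicle, and replicate 1 was the highest of both groups. The ratio of the means was 1.44 at vehicle, 1.39 at 1 ng/mL insulin (2.42% ± 0.233 against 1.74% ± 0.120) and 1.47 at 10 ng/mL insulin (2.47% ± 0.270 against 1.68% ± 0.214), and it was above 1 in 3 of 3 pairs each time. With 3 libraries against 3, an exact permutation test cannot give a p below 0.1, so no test of the share is reported.

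In the glucose experiment the share differed less between the cell types. Epithelial cells at 5 mM glucose had 1.79%, 1.95% and 1.94% (1.89% ± 0.0884), and stromal cells had 1.44%, 1.41% and 1.75% (1.53% ± 0.187), a ratio of 1.23 (1.17 without pair 2, which holds epithelial 5 mM glucose replicate 2). At 50 mM glucose the epithelial libraries had 1.66%, 1.75% and 1.74% (1.72% ± 0.0501) and the stromal libraries 1.32%, 1.53% and 1.84% (1.56% ± 0.257), a ratio of 1.10 (1.19 without pair 3). The 50 mM groups overlapped, because stromal replicate 3, the library with 5551 CPM of epithelial markers, exceeded every epithelial library. The share of that library relative to its epithelial partner was the other way round from the rest, with an epithelial to stromal ratio of 0.950 in pair 3. The part of the epithelial marker level in that share was not tested. The ratio of large subunit reads, here with the stalk, to small subunit reads stayed between 1.24 and 1.33 in the libraries other than epithelial 5 mM glucose replicate 2, which had 1.2.

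**Figure D1:**
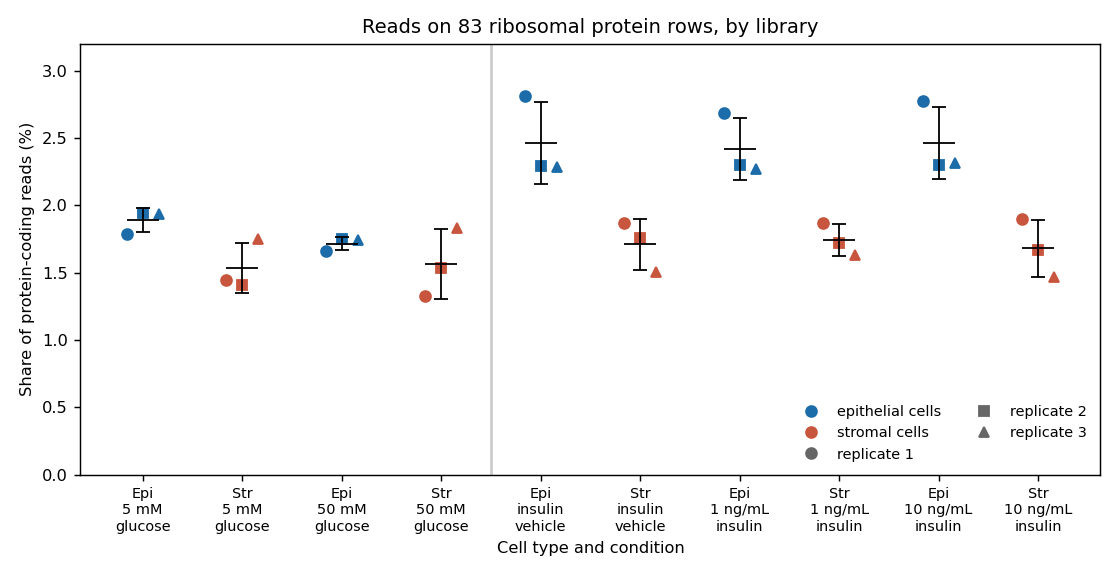
Share of protein-coding reads (percent, y axis) that fell on the ribosomal protein genes in each of the 30 libraries, by group on the x axis; points are libraries, the horizontal line marks the mean and the error bar the SD of 3. At the insulin conditions the epithelial libraries (2.27% to 2.81%) all sit above the stromal ones (1.47% to 1.90%), whereas the 50 mM glucose groups overlap.

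The first comparison was between the cell types at insulin vehicle. Ribosomal protein messages leaned towards higher levels in epithelial cells: 41 of 82 rose past the threshold (adjusted p under 0.05 and a log2 fold change beyond 0.1 in edgeR's quasi-likelihood test, with the replicate number as a block), and 1, RPL26L1, fell. Cell type separated a large part of the transcriptome, since 55.9% of all protein-coding genes passed the same threshold, 28.2% higher and 27.8% lower in epithelial cells. Against that background the members' number of calls was not high, but their direction was uneven. The median log2 fold change over the 82 members was 0.37, and that over all protein-coding genes was -0.0022. DESeq2, run as the other tool, called 45 higher and 1 lower. Of the 82, 68 lay above 0 (82.9%, against 49.8% of protein-coding genes), and 64 were higher in epithelial cells in 3 of 3 pairs (78%, against 38.9%). In 50 the epithelial libraries all exceeded the stromal ones (61%, against 33.9%), and in 3 they were all lower (3.66%, against 33.3%).

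The shift ran through all structural groups. Among large subunit genes 24 of 45 rose and 1 fell, with a median log2 fold change of 0.37. Among small subunit genes 15 of 33 rose and none fell, with a median of 0.44. Of the stalk genes, RPLP0 stood at 1891, 1439 and 1501 CPM in epithelial and 1069.7, 1111 and 950.4 CPM in stromal cells. All epithelial libraries were above all stromal ones, a log2 fold change of 0.63 (SE 0.154, adjusted p = 0.0233 in edgeR). RPLP2, a partner of RPLP1 in the stalk's dimers, also passed (0.45, SE 0.140, adjusted p = 0.0482), and RPLP1 had 0.31 with an adjusted p of 0.0764. RPS19BP1, which is no ribosomal protein, had a log2 fold change of 0.07.

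The largest difference was that of RPS27L, a p53-inducible paralog of the small subunit protein RPS27. Its level was 54.2, 56.0 and 43.9 CPM in epithelial and 24.2, 26.1 and 18.3 CPM in stromal vehicle cells. The groups did not overlap, and the log2 fold change was 1.19 (SE 0.0971, adjusted p = 0.00147 in edgeR). RPL7, a large subunit protein, had 22.1, 19.2 and 23.3 CPM against 11.6, 12.3 and 11.0 CPM, again without overlap (0.90, SE 0.144, adjusted p = 0.00676). RPL35A, a large subunit protein whose loss is one cause of Diamond-Blackfan anaemia, had 88.6, 85.5 and 74.7 CPM against 46.5, 49.3 and 46.7 CPM (0.82, SE 0.102, adjusted p = 0.00351). RPS21 had 177, 133 and 113 CPM against 88.7, 96.6 and 75.6 CPM (0.69, SE 0.143, adjusted p = 0.0144). In each of these genes the lowest epithelial library exceeded the highest stromal one.

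RPL12 and RPL23A were called at vehicle as well, with less even levels. RPL12 had 6.60, 4.65 and 17.3 CPM in epithelial and 3.18, 2.57 and 10.8 CPM in stromal cells (0.87, SE 0.185, adjusted p = 0.0158). Replicate 3 was far above the others in both cell types, so the groups overlapped although every pair had the epithelial cells higher. RPL23A, a large subunit protein at the exit of the nascent chain tunnel, had 4.08, 3.95 and 3.54 CPM against 1.12, 2.19 and 2.06 CPM (1.16, SE 0.333, adjusted p = 0.0382). Its groups did not overlap, at a low level set by few reads.

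Paralog pairs did not always move together. RPL22, an RNA-binding large subunit protein, rose in epithelial cells (96.4, 92.0 and 76.2 CPM against 50.3, 59.5 and 48.6 CPM, log2 fold change 0.75, SE 0.113, adjusted p = 0.00566 in edgeR). Its paralog RPL22L1 had 8.8, 9.31 and 10.8 CPM in epithelial and 11.6, 12.1 and 11.9 CPM in stromal cells. The direction was opposite and the groups did not overlap, but the difference of -0.29 did not pass (adjusted p = 0.157). RPL26 rose (84.5, 64.8 and 65.2 CPM against 59.1, 56.6 and 50.4 CPM, 0.37, SE 0.109, adjusted p = 0.0389), whereas RPL26L1, its close relative, fell from 27.5, 29.4 and 24.1 CPM in stromal to 19.2, 16.3 and 14.5 CPM in epithelial cells. That decrease, -0.69 with an SE of 0.125 and an adjusted p of 0.00979, was the only one called at vehicle. RPL36AL rose (0.38, SE 0.0989, adjusted p = 0.0295), and RPL36A, at 4.23 to 6.17 CPM, had -0.01.

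RPS4X, the X-linked form of the RPS4 protein, had 167, 144 and 127 CPM in epithelial and 103, 114 and 86.6 CPM in stromal cells and rose (0.54, SE 0.116, adjusted p = 0.0161). The gene annotated RPS4Y1 had 89.2, 82 and 90.4 CPM against 100.1, 115 and 109 CPM, a non-overlapping difference of -0.29 that did not pass (adjusted p = 0.0795). RPL7L1, an RPL7 homologue that acts in ribosome assembly, had -0.23 (adjusted p = 0.122), while RPL7 itself rose. RPS27, a zinc finger protein of the small subunit, had 176, 128 and 101 CPM against 92.7, 101 and 76.2 CPM and rose (0.58, SE 0.154, adjusted p = 0.0309). RPS27A, made as a fusion of ubiquitin with a small subunit protein, had 452, 405 and 357 CPM against 344, 364 and 319 CPM. Its groups overlapped and its log2 fold change of 0.25 did not pass (adjusted p = 0.142).

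**Figure D2:**
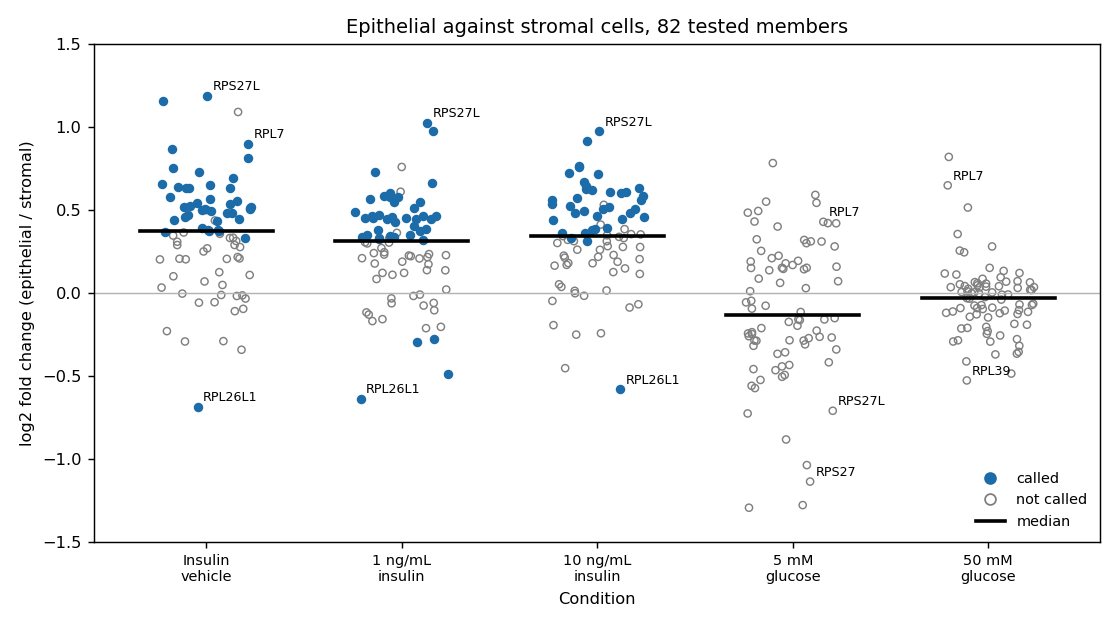
Log2 fold change of each tested ribosomal protein gene between epithelial and stromal cells (y axis, positive where epithelial cells are higher) in each of the 5 conditions (x axis), with the members' median as a line and called genes filled. The medians are 0.37, 0.31 and 0.34 at vehicle, 1 and 10 ng/mL insulin, and -0.13 and -0.03 at 5 and 50 mM glucose.

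The members leaned the same way at both insulin doses, in other libraries of the same experiment. At 1 ng/mL, 37 members rose and 4 fell in epithelial cells, with a median of 0.31, while 59.4% of protein-coding genes were called, 29.9% higher and 29.5% lower. At 10 ng/mL, 37 rose and 1 fell, with a median of 0.34, while 54.9% of protein-coding genes were called, 27.3% higher and 27.6% lower. Of the members, 32 were called higher at all 3 conditions (39%, against 24.6% of protein-coding genes) and 46 at 1 or more (56.1%, against 32.5%). The 3 conditions are not independent of each other, since libraries with the same replicate number deviated together across the doses, with correlations of 0.265 to 0.857. RPS27L had log2 fold changes of 1.03 (SE 0.106, adjusted p = 0.000793 in edgeR) and 0.97 (SE 0.10, adjusted p = 0.00251) at 1 and 10 ng/mL. RPL7 had 0.98 and 0.92, RPL35A 0.73 and 0.63, and RPL22 0.47 and 0.76. RPL26L1 again fell, by 0.64 and 0.58 on the log2 scale.

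The other 3 members that fell at 1 ng/mL were RPS12 (-0.49, adjusted p = 0.0242 in edgeR), RPL7L1 (-0.30, adjusted p = 0.0396) and RPS4Y1 (-0.28, adjusted p = 0.0473). They had values of the same sign at 10 ng/mL (-0.25, -0.19 and -0.24) without passing. RPL26 was level between the cell types at 1 ng/mL (0.11, adjusted p = 0.355) and higher in epithelial cells at 10 ng/mL (0.46, adjusted p = 0.0129). RPL23A was called at vehicle alone of the 3 conditions (0.76 and 0.41 at the insulin doses). Neither gene's cell type difference was called as different from that at vehicle. The interaction for RPL26 was -0.26 at 1 ng/mL (adjusted p = 0.632 in edgeR) and 0.09 at 10 ng/mL (adjusted p near 1), and that for RPL23A was -0.40 (adjusted p = 0.927) and -0.81 (adjusted p near 1). The difference between 1 and 10 ng/mL was not tested.

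Many calls rested on all 3 pairs being present. At vehicle, 9, 27 and 15 of the 42 called members stayed called without replicate 1, 2 and 3 in turn, and 8 stayed called in all 3 of these fits, among them RPL22, RPL26L1, RPL35A, RPL7, RPS21 and RPS27L. At 1 ng/mL, 12 of 41 stayed called throughout, and at 10 ng/mL 7 of 38. Protein-coding genes were called at 39.2%, 43.3% and 43.3% in the 3 vehicle fits, so a smaller part of the background was lost than of the members. The members' median log2 fold change at vehicle moved less than their calls, to 0.29, 0.44 and 0.39.

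The same comparison in the glucose experiment called no member. At 5 mM glucose 0 of 82 passed, where 21.5% of protein-coding genes did; 0 members had an unadjusted p under 0.05 in edgeR and the smallest adjusted p was 0.217, that of RPS19BP1. At 50 mM glucose 0 of 82 passed, where 17.6% of protein-coding genes did; 4 had an unadjusted p under 0.05 and the smallest adjusted p was 0.0678, that of RPL7 (0.65, SE 0.185). The median log2 fold changes were -0.13 and -0.03, while the protein-coding medians were 0.000042 and 0.029; DESeq2 called no member either. On library totals without TMM factors the members' medians turned to 0.084 and 0.122, but the protein-coding medians moved with them, to 0.218 and 0.180. On that scale RPL7 was called higher at 50 mM glucose. At 5 mM the members' median on TMM-scaled counts lay below 0, with 46 of 82 below it, whereas the summed share, which is not TMM scaled, was 1.23 times higher in epithelial cells. The members' standard errors were larger here, with a median of 0.333 at 5 mM and 0.163 at 50 mM against 0.122 at vehicle.

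Part of the 5 mM values turned on epithelial replicate 2. RPS27L stood at 25.2, 1.98 and 22.4 CPM in the epithelial and 17.2, 15.9 and 24 CPM in the stromal libraries of 5 mM glucose. Its log2 fold change was -0.71 (SE 0.747) with all libraries and 0.25 without replicate 2. The members' median was -0.044 without replicate 2, still with none called. Without replicate 1, 3 members were called lower in epithelial cells, which leaves the low library as 1 of only 2: RPL39 (-2.19), the RPS29 row ENSBTAG00000052337 (-2.21) and RPS27 (-1.97). At 50 mM glucose, leaving out replicate 3, whose stromal library had 5551 CPM of epithelial markers, gave a median of 0.024 and again no call, while 28.4% of protein-coding genes were then called. The stromal libraries left in that fit had 1851 and 1327 CPM of these markers, above those of 5 mM glucose.

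Some members kept 1 direction across experiments, as did many other genes. RPL7 was the steadiest of the large differences: at 5 mM glucose it had 13.6, 20.6 and 13.4 CPM in epithelial and 11.5, 11.3 and 12.0 CPM in stromal cells, and at 50 mM 17, 16.8 and 18.3 CPM against 9.11, 12.6 and 12.0 CPM. At both glucose concentrations the epithelial libraries all exceeded the stromal ones. Over the 5 conditions, 24 members (29.3%, against 33.9% of protein-coding genes) had a log2 fold change above 0 each time and 7 (8.54%, against 33.6%) below 0 each time (RPL14, RPL22L1, RPL26L1, RPS10, RPS12, RPS16 and RPS4Y1); on library totals without TMM factors RPL26L1 and RPS4Y1 lay above 0 at both glucose concentrations, and with DESeq2 RPS21 and RPLP0, 2 of the 24, lay just below 0 at 50 mM. In 7 members the epithelial library was higher in all 3 pairs of all 5 conditions (8.54%, against 18.2% of protein-coding genes): RPL7, RPL11, RPL12, RPL28, RPL29, RPS3 and RPS28. No member was lower in every pair of every condition, as 18.3% of protein-coding genes were. Keeping 1 direction was thus no more frequent among the members than among protein-coding genes.

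The insulin vehicle and 5 mM glucose groups had the same glucose concentration, so the cell type effect was compared between them by an interaction term, a test added after these values were seen. The median difference over the members was 0.36, larger in the insulin experiment for 70 of 82, and that of all protein-coding genes was 0.035. Leaving out 1 replicate number in both experiments gave medians of 0.42, 0.54 and 0.30 without replicates 1, 2 and 3, with 68, 78 and 58 of 82 members above 0. No member was called and the percentage of protein-coding genes called was 0; 8 members had an unadjusted p under 0.05 in edgeR, and the smallest adjusted p was 0.419, that of RPL37A. A difference of the cell type effect between the experiments was therefore not detected gene by gene. The experiments also differed in vehicle, depth and libraries, which cannot be told apart here.

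**Figure D3:**
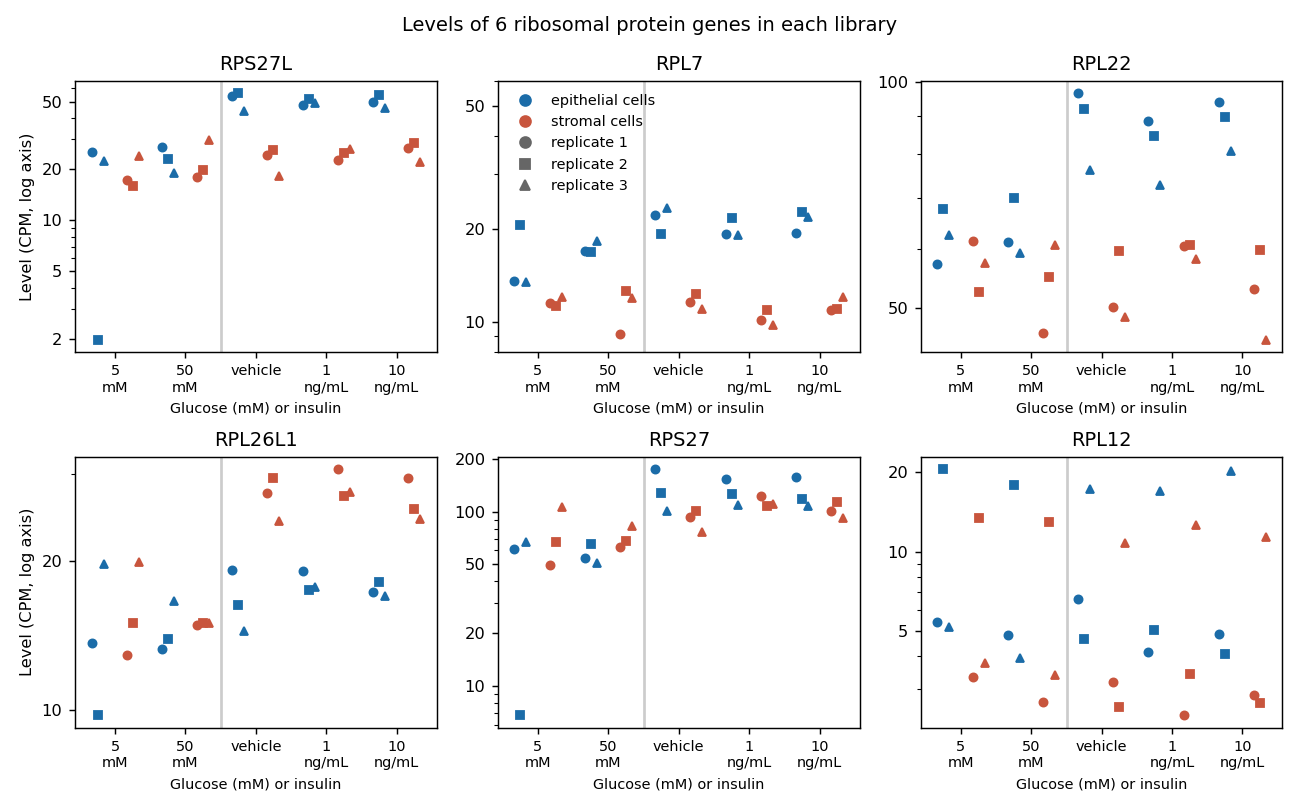
Level (CPM on TMM-scaled library sizes, log y axis) of RPS27L, RPL7, RPL22, RPL26L1, RPS27 and RPL12 in each library, by group (x axis); each point is 1 library. RPS27L drops to 1.98 CPM in epithelial 5 mM glucose replicate 2, RPL26L1 alone is lower in epithelial cells at the insulin conditions, and RPL12 has 1 library of every 3 far above the rest.

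The surroundings of the ribosome were read in the same fit, from fixed gene lists. In the vehicle comparison 28.2% of all protein-coding genes were called higher and 27.8% lower in epithelial cells. At vehicle, 3 of the 4 ribosome components that the name rule leaves out rose in epithelial cells. Among them were RACK1, a scaffold on the small subunit (0.59, adjusted p = 0.0240 in edgeR), and RPSA (0.55, adjusted p = 0.0370). The component that fell was FAU, a fusion of a ubiquitin-like protein with a small subunit protein (-0.38, adjusted p = 0.0491). Elongation factors and other terminal oligopyrimidine messages had a median of 0.46, with 7 of 16 higher and none lower, including EEF1A1 (0.59), which brings aminoacyl-tRNA to the ribosome, and PABPC1 (0.47), the poly(A) binding protein.

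Other lists did not share that direction. Mitochondrial ribosomal protein genes had a median of -0.21, with 6 of 75 higher and 17 lower, and ribosome assembly genes a median of -0.24, with 1 of 30 higher and 10 lower. Initiation factors stood at a median of -0.0034 with 4 of 23 higher and 3 lower. Of the 14 mTOR and translation control genes 4 rose and 3 fell, with a median of -0.029. The shares called on the lists of this paragraph were near or below those of all protein-coding genes (28.2% higher and 27.8% lower). Of the mTOR and translation control genes, MTOR (0.65), EEF2K (0.81), EIF4EBP1 (0.36) and TSC2 (1.03), an inhibitor of the mTOR pathway, were higher in epithelial cells. The lower ones were EIF4EBP2 (-0.55), RPTOR (-0.72), a subunit of mTOR complex 1, and RPS6KB1 (-0.51), the kinase of ribosomal protein S6. In the glucose experiment no gene of these lists was called at 5 mM, where 21.5% of protein-coding genes were. At 50 mM, where 17.6% of protein-coding genes were called, 1 mitochondrial ribosomal protein gene rose and 1 fell. Of the mTOR and translation control genes, 1 rose and 2 fell. Ribosome assembly genes leaned the other way there, with medians of 0.28 (21 of 30 above 0) at 5 mM and 0.24 (23 of 30) at 50 mM. So did mitochondrial ribosomal protein genes, with 0.14 (49 of 75 above 0) and 0.089 (48 of 75). The lower levels in epithelial cells were therefore not seen in both experiments.

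The main question of the glucose experiment was what a high concentration does to each cell type. No ribosomal protein gene was called between 50 and 5 mM glucose in epithelial cells, where 0% of protein-coding genes were. The paper, which used DESeq2, reports protein-coding genes altered by 50 mM glucose in both cell types. Its cut-off was a P under 0.05, not said to be adjusted. DESeq2 run on these counts also called protein-coding genes in stromal cells, as given further below. The members' median log2 fold change was -0.032, with 38 of 82 above 0, and none had an unadjusted p under 0.05 in edgeR, as against 1.54% of protein-coding genes. The summed share was lower at 50 mM in 3 of 3 pairs (ratios of 0.927, 0.898 and 0.900), with 1.79%, 1.95% and 1.94% at 5 mM against 1.66%, 1.75% and 1.74%. The ratio of the means was 0.908, and 0.913 without pair 2. The highest 50 mM library was below the lowest 5 mM library, so the groups did not overlap, but the gap was small.

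RPS2, RPL3 and RPL13 had the smallest p among the members that moved one way in all 3 pairs. Moving together across pairs was thus a condition of their choice. In this comparison 0 members were higher in 3 of 3 pairs, so the downward direction was fixed as well. RPS2, a small subunit protein, had 631, 1182 and 557 CPM at 5 mM and 533, 505 and 520.03 CPM at 50 mM, with a log2 fold change of -0.52 (SE 0.295, unadjusted p = 0.132, adjusted p = 0.804). The 5 mM libraries were all higher, but replicate 2 set the size, and without it the value was -0.18. RPL3 had 295, 695 and 357 CPM against 261, 333 and 316 CPM (-0.47; -0.18 without replicate 2). RPL13 had 263, 601 and 243 CPM against 237, 239 and 233 CPM (-0.51; -0.11 without replicate 2). RPS27 had 60.9, 6.79 and 66.6 CPM against 54.4, 65.0 and 50.9 CPM, so that its log2 fold change of 0.75 (SE 0.791) turned to -0.28 without replicate 2. RPS27A had 268, 195 and 249 CPM against 256, 242 and 219.6 CPM (0.02). Without replicate 2 the members' median was -0.084 and 72 of 82 lay below 0, still with none called.

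**Figure D4:**
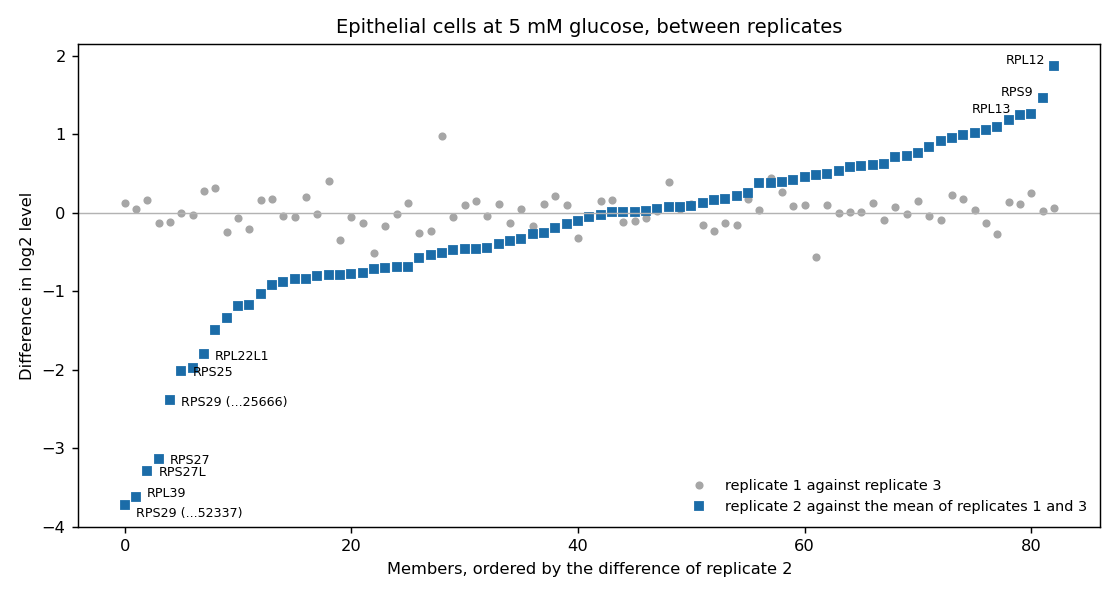
Difference in log2 level (y axis) of the 83 ribosomal protein genes between the epithelial 5 mM glucose libraries, ordered along the x axis by the difference of replicate 2 from the mean of replicates 1 and 3 (squares); the circles give replicate 1 against replicate 3. The squares run from -3.72 for the RPS29 row ENSBTAG00000052337 to 1.87 for RPL12, while most circles stay close to 0.

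Epithelial 5 mM glucose replicate 2 departed from its partners in both directions among the members. The RPS29 row ENSBTAG00000052337 had 4.58 CPM there against 69.4 and 63.9 CPM, RPL39 7.48 against 99.6 and 96.8 CPM, and RPL5 24.2 against 96 and 98.1 CPM. In contrast RPS9 had 952 against 348 and 343 CPM, and RPLP0 1754 against 1181 and 1169.99 CPM. Relative to the mean of its partners, 13 members lay more than 1 log2 unit lower and 20 more than 0.5 higher. Among protein-coding genes 20.5% and 33.9% did so, so the departure was not particular to the members. The within-group coefficient of variation had a median of 26.3% over the members in this group and 5.51% to 14.0% in the other 9. Protein-coding genes in the members' range had medians of 39.8% in this group and 11.6% to 24.4% in the other 9.

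In stromal cells glucose called no member either, with 0% of protein-coding genes called. Epithelial markers were higher at 50 than at 5 mM glucose in each stromal pair, and their part in the values of this paragraph was not tested. The median was -0.049 (0.018 on library totals without TMM factors and 0.0019 without replicate 3), with 22 of 82 above 0, and no member had an unadjusted p under 0.05, as against 4.96% of protein-coding genes. RPS27L had 17.2, 15.9 and 24 CPM at 5 mM and 18.1, 19.9 and 29.6 CPM at 50 mM. It was higher in each pair, where moving one way was a condition of its choice, but the groups overlapped (0.23, SE 0.124, adjusted p = 0.696 in edgeR). RPL17, at 6.47, 7.01 and 7.15 CPM against 5.79, 5.03 and 6.07 CPM, had -0.29 without overlap, and RPS13 had -0.20; both had the same adjusted p of 0.696. RPS27 had 49.3, 67.2 and 107 CPM against 62.8, 67.9 and 83.2 CPM (-0.0041), and RPS27A had -0.04. The difference of the glucose effect between the cell types was called for no member (0% of protein-coding genes), and none had an unadjusted p under 0.05 in edgeR (7.65% of protein-coding genes). The members' median difference was 0.068, with 46 of 82 above 0. It was -0.0030 without replicate 2 and -0.0083 without replicate 3. RPS27 had 0.75, and -0.30 without replicate 2.

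The insulin experiment asked the same of 2 doses of insulin, and DESeq2 called no member in any comparison of this experiment's doses or of the glucose concentrations. In epithelial cells no member was called at 1 ng/mL against vehicle (0% of protein-coding genes), at 10 ng/mL against vehicle (0.113%) or at 10 against 1 ng/mL (0%). The medians were -0.025, -0.0038 and 0.016, and 0, 5 and 7 members had an unadjusted p under 0.05 in edgeR. These numbers came to 0%, 6.10% and 8.54% of the members, while 2.87%, 6.78% and 4.29% of protein-coding genes had such a p. The mean share stayed at 2.46%, 2.42% and 2.47%. Standard errors were small in these comparisons, with medians over the members from 0.0436 to 0.0484.

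RPS27 and RPS27A aside, the members named here were chosen among those that moved one way in all 3 pairs. At 1 ng/mL those that came nearest moved little. RPL22 had 96.4, 92.0 and 76.2 CPM at vehicle and 88.6, 84.8 and 72.8 CPM at 1 ng/mL, lower in each pair with overlapping groups (-0.11, SE 0.0516, unadjusted p = 0.0540, adjusted p near 1 in edgeR). RPL5, which joins the 5S ribosomal RNA and can bind MDM2, had -0.09, and RPS3A had -0.07. At 10 ng/mL RPS3A had 247, 247 and 205 CPM against 288, 265 and 219 CPM at vehicle, again lower in each pair (-0.14, SE 0.0412, unadjusted p = 0.00225, adjusted p = 0.337). RPL23A had 2.60, 2.76 and 1.85 CPM against 4.08, 3.95 and 3.54 CPM, with no overlap (-0.69, SE 0.222, adjusted p = 0.433). RPS14 had -0.10. Between the doses, RPS26 had 41.7, 38.4 and 56.7 CPM at 10 ng/mL and 34.2, 32.5 and 49.3 CPM at 1 ng/mL, higher in each pair (0.25, adjusted p = 0.964), RPL39 had 0.11, and RPL23A -0.55. RPS27 and RPS27A stayed within 0.07 of 0 on the log2 scale in all 3 epithelial comparisons.

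**Figure D5:**
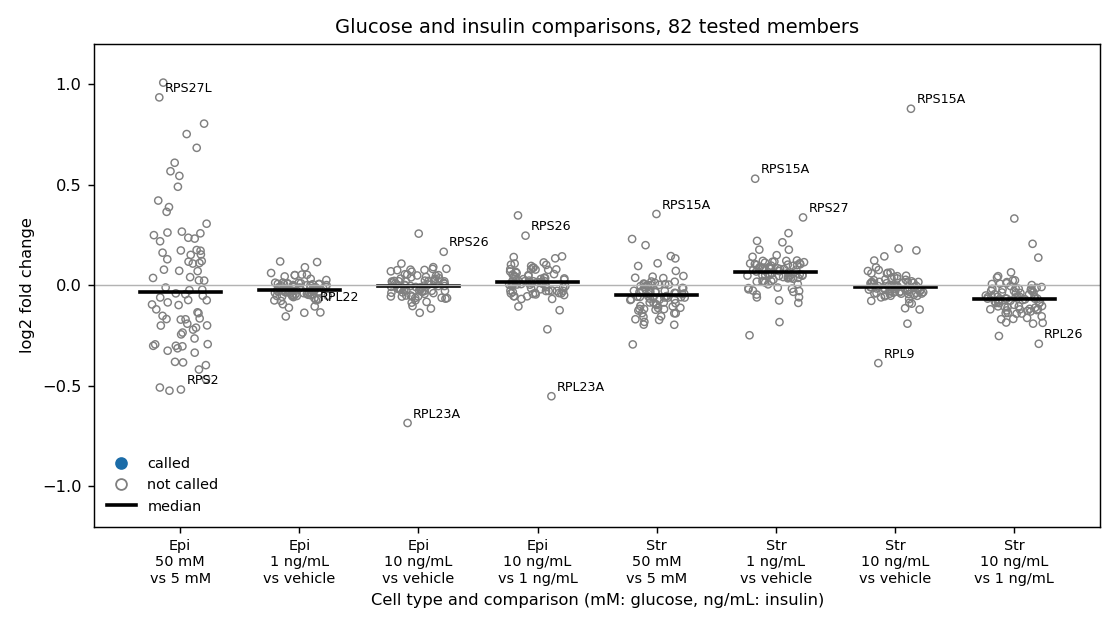
Log2 fold change of each tested ribosomal protein gene (y axis) in the 8 glucose and insulin comparisons (x axis), with the members' median; none was called. The medians lie between -0.067 and 0.065, and the spread is widest in the epithelial glucose comparison.

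In stromal cells insulin called no member at 1 ng/mL against vehicle (0% of protein-coding genes), at 10 ng/mL against vehicle (0%) or at 10 against 1 ng/mL (0.0244%). At 1 ng/mL against vehicle, 68 of 82 members lay above 0 with a median of 0.065, and at 10 against 1 ng/mL 69 of 82 lay below 0 with a median of -0.067. Pair 3 held most of both differences. The members' median was 0.046, 0.020 and 0.115 in pairs 1, 2 and 3 of the former and -0.016, -0.025 and -0.143 in those of the latter. Without replicate 3 the medians were 0.033 (52 of 82 above 0) and -0.022 (54 of 82 below 0). These 2 comparisons share the 1 ng/mL libraries and are not independent. At 10 ng/mL against vehicle the median was -0.0089, with 31 of 82 above 0. At 1 ng/mL against vehicle 8 members (7 higher) had an unadjusted p under 0.05 in edgeR, 9.76% of them against 5.03% of protein-coding genes. At 10 against 1 ng/mL 10 had one, all lower (12.2% against 3.68%), and at 10 ng/mL against vehicle 3 did (3.66% against 2.73%). The summed share was 1.71%, 1.74% and 1.68% at vehicle, 1 and 10 ng/mL, less than the spread between replicates.

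RPS27 came nearest at the low dose. It had 92.7, 101 and 76.2 CPM at vehicle and 123, 108 and 110.2 CPM at 1 ng/mL, and every 1 ng/mL library exceeded every vehicle library (0.34, SE 0.0748, unadjusted p = 0.000628, adjusted p = 0.460 in edgeR). It was called without replicate 2, where the value was 0.46, and with every gene of at least 1 count tested. RPL36 had 68.7, 81.1 and 66.0 CPM against 84.5, 90.4 and 76.8 CPM (0.22, adjusted p = 0.686). RPL26 had 59.1, 56.6 and 50.4 CPM against 69.1, 59.7 and 64.6 CPM without overlap (0.21, adjusted p = 0.870). At 10 ng/mL RPL26 stood at 56.7, 51.4 and 49.9 CPM, below every 1 ng/mL library (-0.29, SE 0.0631, unadjusted p = 0.000781, adjusted p = 0.340); it was called with every gene of at least 1 count tested. In that comparison RPL36 had -0.25 and RPS12 -0.16. Against vehicle at 10 ng/mL, RPL9 had 17.6, 18.4 and 12.6 CPM and 20.6, 23.6 and 19.0 CPM at vehicle, with no overlap (-0.39, SE 0.0979, adjusted p = 0.999). In the same comparison RPS27 had 101, 113 and 92.4 CPM (0.18), and RPS15A, at 1.23 to 1.83 CPM against 0.458 to 1.24 CPM, had 0.88. RPS27A stayed within 0.04 of 0 in all 3 stromal comparisons. The paper, which used DESeq2, lists RPS27A among the stromal transcripts changed at 1 ng/mL, so the 2 results differ for this gene. Its cut-off is given as P under 0.05 without saying whether it was adjusted, so the thresholds may differ too.

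Whether insulin acted differently on the cell types was tested by the interaction term. No member was called at 1 ng/mL (0.659% of protein-coding genes) or at 10 ng/mL (0%). At 1 ng/mL the members' median difference was -0.071, with 66 of 82 below 0, while 55.2% of protein-coding genes lay above 0. Without replicates 1, 2 and 3 in turn, 57, 74 and 63 of 82 lay below 0. At that dose 4 members had an unadjusted p under 0.05 in edgeR, 4.88% of them against 6.69% of protein-coding genes. At 10 ng/mL the median was 0.0042, with 42 of 82 above 0. RPS27 had the smallest p of the members at 1 ng/mL, with a difference of -0.36 (epithelial minus stromal effect, unadjusted p = 0.00436, adjusted p = 0.266 in edgeR), and it had -0.25 at 10 ng/mL. No gene of the 6 lists on the translation machinery was called in any of the 8 glucose and insulin comparisons, where at most 0.113% of protein-coding genes were.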

How the data were processed

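RNA of 30 libraries was sequenced by the authors as stranded 75 bp single-end reads, aligned with Rsubread to the Ensembl cow genome, and the uniquely mapped reads were summed per gene with featureCounts. The deposited values are raw read counts per gene, 1 table per experiment. The deposited tables of comparisons were used only for gene identifiers, symbols and biotypes (17468 genes); they also hold the authors' DESeq2 fold changes and p-values, which were not used. The members and gene lists were chosen with earlier results of these data known.

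Counts were analysed in R 4.3.3 with edgeR 4.0.16 (glmQLFit and glmQLFTest), TMM scaling and filterByExpr, for the 6 libraries of each comparison, or 12 for an interaction, with p-values adjusted by Benjamini-Hochberg over all genes tested. A gene was called at an adjusted p under 0.05 and a log2 fold change beyond 0.1, as counted over protein-coding genes. The replicate number was a block, after the paired design in the study's methods. Within treatments, same-numbered libraries deviated together (correlations of 0.202 to 0.857). Between the cell types the lowest correlation was 0.0325. The replicates are described as biological, and no library pair was identical. Named were RPS27 and RPS27A, the members nearest to a call, the largest cell type differences, paralogs, stalk genes and the extremes of read number. Alternatives were no block, DESeq2 1.42.0, size factors, library totals, a minimum of 1 count, and leaving out each replicate number. The fits were tested on simulated counts. A few genes that the rule would name are not reported here.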

Additional observations from a re-analysis of the deposited data

Results flagged for a closer look

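The estimated effects of 1 ng/mL insulin on RPL22 had opposite signs in the cell types, and neither was called. Against vehicle its log2 fold change was -0.11 in epithelial cells, lower in 3 of 3 pairs, and 0.18 in stromal cells, higher in 3 of 3 pairs. The difference between these effects was -0.27, and the interaction test did not call it (adjusted p = 0.385 in edgeR). Opposite signs were not particular to RPL22. In epithelial cells 24 of 82 members lay above 0 (29.3%, against 50.6% of protein-coding genes), with a median of -0.025. That lean rested on pair 1, since without replicate 1 the median was 0.012 and 53 of 82 lay above 0. In stromal cells 68 of 82 lay above 0 (82.9%, against 48.2%), and 69, 69 and 52 did without replicates 1, 2 and 3. RPS27 had a larger difference, -0.36.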

How the results depend on the processing

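The counts of members called between the cell types at the insulin conditions kept their size under every alternative that used all libraries, and so did the counts of 0 elsewhere, with these exceptions. With every gene of at least 1 count tested, 1 member was called in stromal 1 ng/mL insulin against vehicle, in stromal 10 against 1 ng/mL and in the interaction at 1 ng/mL. On library totals without TMM factors 1 member was called between the cell types at 50 mM glucose. Without the replicate block 39, 40 and 37 members were called at vehicle, 1 and 10 ng/mL, and 0 in all other comparisons, so the block changed no count of members called by over 1.5 times. Leaving out 1 replicate number gave 9 to 29 members called at vehicle, 15 to 24 at 1 ng/mL, 8 to 19 at 10 ng/mL, 0 to 3 at 5 mM glucose and 0 to 1 in stromal 1 ng/mL against vehicle. The lower counts come with 4 libraries in place of 6. As a share of all counted genes, the ratio was 0.868 for 50 against 5 mM glucose in epithelial cells, and 1.33 and 1.36 between the cell types at 1 and 10 ng/mL.

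The background counts over protein-coding genes moved more. At 50 mM glucose 870 were higher and 1458 lower between the cell types (37.4% of the calls higher), against 246 and 806 without the replicate block (23.4%), and 1458 and 1346 on library totals (52.0%). DESeq2 called 171 higher and 2 lower in stromal 50 against 5 mM glucose, and 6 and 240 in the glucose interaction, where edgeR called 0. In the interaction at 1 ng/mL edgeR called 88, DESeq2 25, the fit without the block 0, and that with at least 1 count 248 higher and 22 lower. In epithelial 10 ng/mL against vehicle 9 higher and 5 lower became 0 without the block and with DESeq2, and 17 and 24 with at least 1 count. The last setting also gave 24 higher and 108 lower in stromal 1 ng/mL against vehicle, where 0 were called, and 128 higher and 10 lower in stromal 10 against 1 ng/mL, where 3 were. The cause of these changes was not tested.

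Values near 0 changed sign. RPS27 in stromal 50 against 5 mM glucose (-0.0041) became 0.0052 with DESeq2, 0.0058 with RLE size factors, 0.063 on library totals and 0.0067 with at least 1 count. On library totals RPS27A became 0.0052 in epithelial 10 ng/mL against vehicle, 0.029 in stromal 50 against 5 mM glucose and 0.00028 in stromal 10 against 1 ng/mL, and RPS19BP1 became 0.033 between the cell types at 1 ng/mL. On the same scale, between the cell types at 5 mM glucose, RPL35A became 0.059, RPL26L1 0.043 and RPS4Y1 0.066, and at 50 mM RPL26L1 and RPS4Y1 became 0.12 each. RPS21 became -0.0019 at 5 mM without the replicate block. At 50 mM RPS21 became -0.0018 and RPLP0 -0.0086 with both DESeq2 and RLE size factors.

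Leaving out 1 replicate number at a time gave, in epithelial 50 against 5 mM glucose, -0.28 to 1.51 for RPS27 and -0.12 to 0.11 for RPS27A. In the epithelial insulin comparisons RPS27 ranged from -0.11 to 0.045 at 1 ng/mL and from -0.060 to 0.013 between the doses, and RPS27A from -0.077 to 0.059 at 10 ng/mL. In stromal cells RPS27 ranged from -0.17 to 0.16 for glucose, and RPS27A from -0.039 to 0.082 at 1 ng/mL and from -0.060 to 0.052 between the doses. The interaction of RPS27 with glucose ranged from -0.30 to 1.57. Between the cell types, RPS19BP1 ranged from -0.17 to 0.00030 at 1 ng/mL and from -0.012 to 0.079 at 10 ng/mL, and RPL22L1 from -0.28 to 0.061 at 1 ng/mL. At 5 mM glucose the ranges were -1.48 to 0.25 for RPS27L, -0.35 to 0.16 for RPL35A, -0.31 to 0.058 for RPL26L1, -0.47 to 0.21 for RPS4Y1 and -0.10 to 0.15 for RPS21. At 50 mM they were -0.20 to 0.40 for RPS27L, -0.13 to 0.042 for RPL26L1, -0.24 to 0.23 for RPS4Y1, -0.047 to 0.094 for RPS21, -0.016 to 0.021 for RPLP0, -0.054 to 0.068 for RPLP2 and -0.039 to 0.20 for RPL7L1.

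With 3 libraries a group, the depth and number of libraries limit what the members with few reads, such as RPL23A and RPS15A, can show.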

Other observations

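RPL12 had 1 replicate number far above the others in every group of both cell types, a pattern noticed in the data. In the glucose experiment this was replicate 2, at 13.0 to 20.6 CPM against 2.68 to 5.40 CPM in replicates 1 and 3. In the insulin experiment it was replicate 3, at 10.8 to 20.3 CPM against 2.39 to 6.60 CPM. The highest library exceeded the next by 3.57 to 3.83 times in the glucose groups and by 2.63 to 4.17 times in the insulin groups. One replicate number was the highest in every group for 4 members in the glucose and 10 in the insulin experiment, and RPL12 was the only one of them, in either, with a margin of at least 2-fold in every group. It also had the highest coefficient of variation of the members in all 10 groups, from 71.7% to 93.8%. RPS26 showed a smaller margin, with replicate 3 at 48.1 to 59.2 CPM in the insulin groups against 32.5 to 41.7 CPM in replicates 1 and 2.

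The gene annotated RPS4Y1 (ENSBTAG00000025617), named after a human gene on the Y chromosome, was read at 34 to 120.01 CPM in all 30 libraries of these uterine cells. Its place in the cow genome was not used here.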
